A study of Danio rerio with 2 samples.

Results

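A set of 10 genes of skeletal and head muscle were followed in head tissue of zebrafish embryos. They were chosen by name, with earlier results of these data known, and looked up by gene symbol. All 10 of 10 were found among the 51544 features of the count table. They comprise 2 myogenic factors (myod1 and myf5), 7 genes of the sarcomere (acta1a, acta1b, tmod4, ldb3a, nexn, myom2a and ttn.2) and the calcium buffer gene pvalb2.

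Both libraries came from AB strain embryos at 33 hours post fertilisation, and the head was severed just before the otic vesicle, from which the inner ear forms. One library was wildtype and the other came from rbm24a-/- embryos, which carry a TALEN deletion of 8 bp in the first exon of rbm24a. Rbm24 is an RNA-binding protein that in mouse is known for its part in the splicing of heart and skeletal muscle transcripts. The mutation is in the germline and not limited to muscle, and the labels do not give how many embryos went into a library. The labels' protocol speaks of 3 independent samples, and 1 library per genotype was analysed here. The libraries held 14148577 wildtype and 16667612 mutant reads assigned to features. The targeted gene rbm24a (ENSDARG00000102995) had 224 wildtype and 121 mutant reads. With 1 library per group no difference has a replicate check, no p-value was computed, and each interval is an exact 95% one for counting error alone.

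Skeletal muscle forms when the basic helix-loop-helix factors Myf5 and MyoD commit precursor cells to the myogenic fate, after which myogenin and Mef2 factors take part in switching on the contractile genes. The sarcomere is the contractile unit built from thin filaments of actin, thick filaments of myosin, and the giant protein titin, held in register by the Z-disc and the M-line. In the zebrafish head these genes mark the precursors and early fibres of the eye, jaw and gill arch muscles. Some of these proteins also belong to the sarcomeres of the heart. Titin, Ldb3 and nexilin are examples and no full list. Whether the other members, the actins and myom2a among them, are also made in heart cells was not examined here.

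All of the members were weakly expressed in these heads. Their read counts ran from 2 to 97 per library, against a median over all features tested of 12.3 CPM, counts per 1000000 reads of the library. The members' mean levels over both libraries lay between 1.06 and 5.74 CPM, so all 10 passed the filter of a mean of at least 1 CPM. Of these, pvalb2, acta1b and myom2a were under 1 CPM in the wildtype library and ldb3a in the mutant library, so they passed through the library where they were high. Of the defining genes of differentiated muscle, the skeletal myosin heavy chains were at or near 0. Of 9 such myosin rows measured, 5 had 0 reads in both libraries, and the 9 together had 11 wildtype and 7 mutant reads. These myosins include near-identical tandem copies, whose reads may be split between copies or left uncounted. The myogenic factor genes myog and myf6 had 8 and 0 wildtype reads, and 3 and 0 mutant reads.

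Of the myogenic factors, myod1 (ENSDARG00000030110) was lower in the mutant library and myf5 (ENSDARG00000007277) was at a like level in both. For myod1 there were 61 wildtype and 42 mutant reads, or 4.31 and 2.52 CPM. That is 1.71-fold lower in the mutant library, with an interval of 1.136 to 2.60. For myf5 there were 80 and 97 reads, or 5.65 and 5.82 CPM, a ratio of 1.03 with an interval of 0.758 to 1.40. Because this is bulk tissue, fewer cells of a type and less RNA per cell cannot be told apart. Summed, these genes had 9.97 wildtype and 8.34 mutant CPM, a ratio of 0.837 with an interval of 0.657 to 1.07. The share of myf5 in their summed reads was 56.7% in the wildtype library (interval 48.1% to 65.05%). In the mutant library it was 69.8% (interval 61.4% to 77.3%). These separate intervals overlap, which does not show that the shares are equal, and their difference was not tested.

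**Figure D1:**
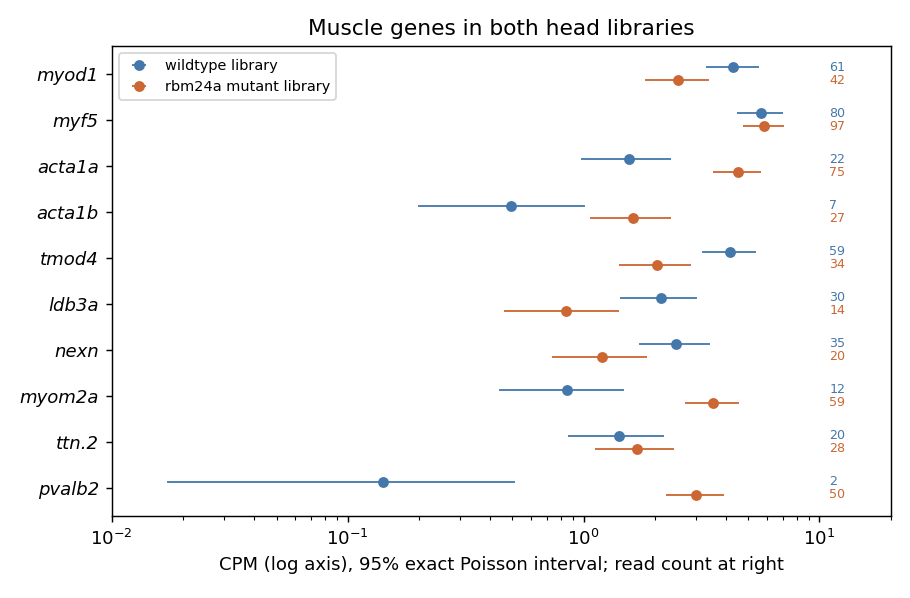
Level of each muscle gene in CPM on a log axis in the wildtype library (blue) and the rbm24a mutant library (orange), 1 library per group, with 95% exact Poisson intervals and the read count at the right. The intervals of pvalb2, acta1a, acta1b and myom2a lie apart with the mutant library higher, those of tmod4 and ldb3a lie apart with it lower, and those of myod1, myf5, nexn and ttn.2 overlap. Overlap of these level intervals does not mean equal levels, as the ratio intervals of myod1 and nexn leave out 1.

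The thin filament genes did not share one direction. Both skeletal alpha-actin genes, whose product is the thin filament itself, were higher in the mutant library. acta1a (ENSDARG00000036371) had 22 wildtype and 75 mutant reads, or 1.55 and 4.50 CPM. This was 2.89-fold higher with an interval of 1.78 to 4.89. acta1b (ENSDARG00000055618) had 7 and 27 reads, or 0.495 and 1.62 CPM, 3.27-fold higher with an interval of 1.39 to 8.91. Summed over both copies, which encode closely similar proteins and may share reads, these actin reads were 29 and 102, a ratio of 2.99 with an interval of 1.96 to 4.68. Other muscle actin rows were not higher. actc1b had 27 and 20 reads, a ratio of 0.629 with an interval of 0.334 to 1.16, and actc1a had 7 and 0, below the filter.

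By their plain CPM ratios, tmod4, ldb3a and nexn were lower in the mutant library, although none passed 2-fold with a pseudocount of 1 CPM. tmod4 (ENSDARG00000020890), the muscle tropomodulin that caps the pointed end of the filament, had 59 wildtype and 34 mutant reads, or 4.17 and 2.04 CPM. Its level was 2.04-fold lower in the mutant library, with an interval of 1.32 to 3.22. ldb3a (ENSDARG00000056322), also called Cypher or ZASP, encodes a Z-disc protein that binds alpha-actinin. It had 30 and 14 reads, or 2.12 and 0.840 CPM, 2.52-fold lower with an interval of 1.298 to 5.15. nexn (ENSDARG00000057317) encodes nexilin, an actin-binding protein, and had 35 and 20 reads, or 2.47 and 1.1999 CPM, 2.06-fold lower with an interval of 1.16 to 3.77. The copy ldb3b had 0 wildtype reads and 1 mutant read, so nearly all reads of this gene pair came from ldb3a.

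At the M-line, myom2a (ENSDARG00000075433) was higher in the mutant library. Its product, a myomesin, links neighbouring thick filaments. It had 12 wildtype and 59 mutant reads, or 0.848 and 3.54 CPM, 4.17-fold higher with an interval of 2.22 to 8.53.

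For the titin gene ttn.2 (ENSDARG00000028213), which encodes the molecular spring that spans from Z-disc to M-line, 20 wildtype and 28 mutant reads were counted. Its levels of 1.41 and 1.68 CPM gave a ratio of 1.19 with an interval of 0.646 to 2.23, so no difference was detectable at this depth. That row carries a length of 340967 bp, close to the 341179 bp from the start of ttn.1 to the end of ttn.2 in RefSeq assembly GRCz12tu, where these genes are neighbours. It therefore covers ttn.1 (ENSDARG00000000563) as well, which has a row of its own with 5 and 10 reads, and reads in the shared stretch may be uncounted or split.

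The member with the highest fold was pvalb2 (ENSDARG00000002768), a parvalbumin that takes up calcium from the cytosol of fast muscle fibres so that they relax quickly. It had 2 wildtype and 50 mutant reads, or 0.141 and 2.9998 CPM. The ratio was 21.2 with an interval of 5.58 to 180, wide because of the 2 wildtype reads. Its share of all member reads was 0.610% in the wildtype library (interval 0.0739% to 2.19%) and 11.2% in the mutant library (interval 8.44% to 14.5%). Of 7 further parvalbumin rows, none was past 2-fold, and their log2 ratios ran from -0.03 to 0.32. Only 3 of these had a mean of at least 1 CPM, among them pvalb5 with 990 and 1141 reads and pvalb8 with 646 and 807 reads.

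**Figure D2:**
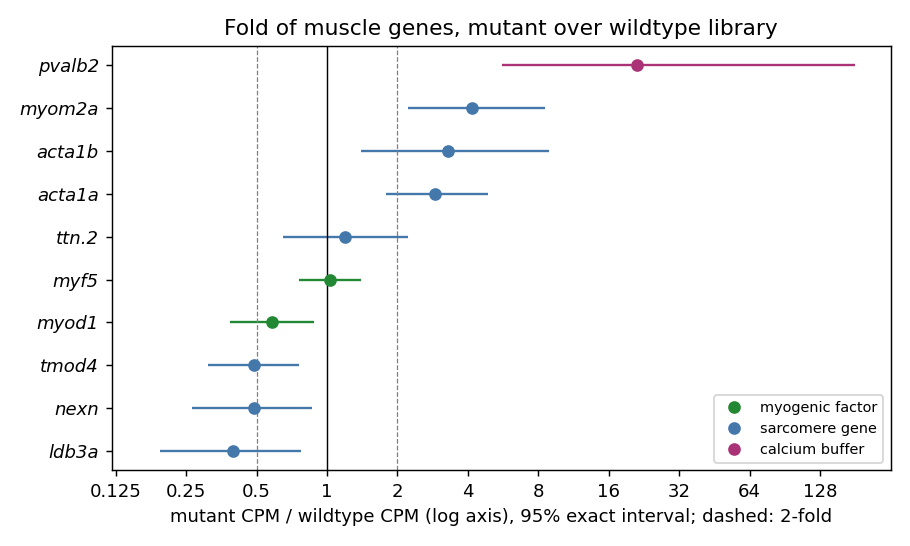
Mutant CPM over wildtype CPM of each muscle gene on a log axis, with 95% exact intervals, the solid line at 1 and dashed lines at 2-fold, 1 library per group. Sarcomere genes (blue) lie on both sides of 1, with ldb3a, nexn and tmod4 below it and acta1a, acta1b and myom2a above it, and pvalb2 has the highest ratio.

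Set against all features, the log2 ratio was taken as log2((mutant CPM + 1)/(wildtype CPM + 1)), and a feature counted as higher from 1 upwards and as lower from -1 downwards. On this scale 3 of the 10 members were higher, namely pvalb2 (1.81), myom2a (1.297) and acta1a (1.11), and none was lower. Of these, pvalb2 and myom2a passed the filter through the mutant library. The members were chosen with earlier results of these data known, so the counts and shares here describe them and are no separate evidence. Over all 18094 features tested, 2.22% were higher and 2.82% were lower, 5.05% in all. Features at low levels pass more often: of the 5825 features between the members' lowest and highest mean CPM, 4.10% were higher and 4.88% lower. The added 1 CPM shrinks the ratio of genes at these levels, and acta1b (0.81), tmod4 (-0.77), ldb3a (-0.76), nexn (-0.66) and myod1 (-0.59) stayed within 2-fold by it. By plain CPM ratios, 4 members passed 2-fold upwards and 3 downwards, against 3.98% and 4.97% of all features tested and 8.50% and 10.5% of those in the members' range of levels. The counting interval left out a ratio of 1 for 8 of the 10 members, all but myf5 and ttn.2, and did so for 44.4% of all features tested and 32.0% of those in the members' range of levels. It lay wholly past 2-fold for 2 members, pvalb2 and myom2a, against 3.48% of all features tested and 6.33% of those in that range. With a pseudocount of 5 CPM no member passed 2-fold in either direction.

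**Figure D3:**
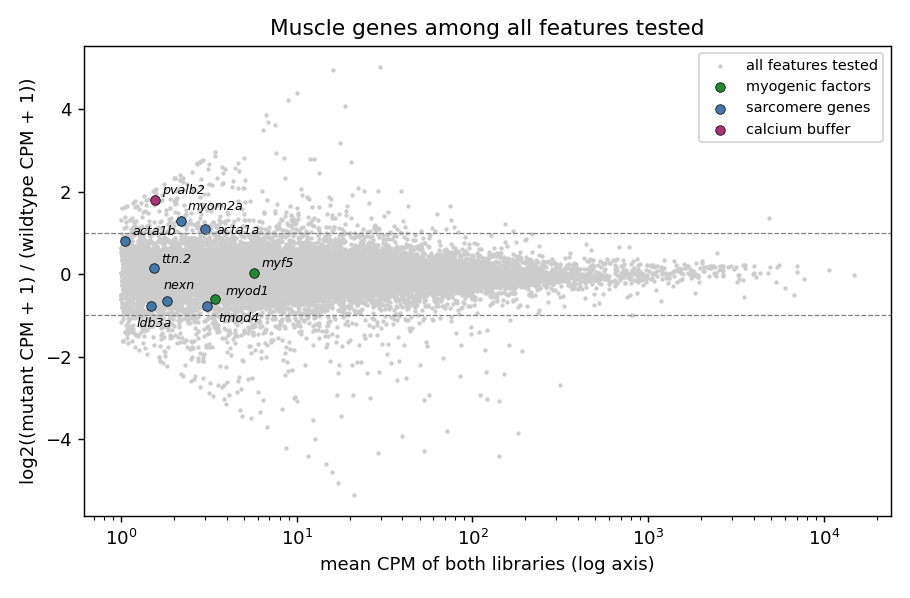
Log2 ratio of mutant over wildtype CPM with 1 added to each, against the mean CPM of both libraries on a log axis, for all 18094 features tested (grey) and the muscle genes (coloured by role). The muscle genes sit at the low end of expression, where the grey cloud is widest, and pvalb2, myom2a and acta1a lie above the dashed line at 2-fold.

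As groups, neither the myogenic factors nor the sarcomere genes differed between the libraries beyond counting error in their summed level. The 7 sarcomere members had a median log2 ratio of 0.15, with 4 above 0 and 3 below, beside a median of -0.001 over all features tested. The median of the myogenic factors was -0.28. Summed sarcomere reads were 185 and 257, or 13.1 and 15.4 CPM, a ratio of 1.18 with an interval of 0.972 to 1.43. This sum rests on single genes, as the ratio was 0.948 without acta1a and 0.972 without myom2a, and the median was -0.25 without either one of them. Of the reads of both groups together, sarcomere genes took 56.7% in the wildtype library (interval 51.2% to 62.2%). In the mutant library they took 64.9% (interval 59.97% to 69.6%). These separate intervals overlap, but overlap does not show that the shares are equal, and the difference between the shares was not tested.

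Within the sarcomere genes the make-up of the reads differed. acta1a, acta1b and myom2a gave 22.2% of the sarcomere reads in the wildtype library (interval 16.4% to 28.8%) and 62.6% in the mutant library (interval 56.4% to 68.6%). tmod4, ldb3a and nexn gave 67.0% (interval 59.7% to 73.7%) and 26.5% (interval 21.2% to 32.3%). These groupings were made after the values were seen, so the shares describe the split and are no separate evidence for it.

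Levels can be set between genes only per length, for which the deposited RPKM values were used, although the length behind them is not that given in the table. In the wildtype library myf5, myod1 and tmod4 led with 2.54, 2.43 and 2.43 RPKM, and their intervals overlapped. acta1a followed with 0.72 RPKM, below the interval of tmod4, then nexn (0.49), acta1b (0.32), ldb3a (0.19), myom2a (0.14), pvalb2 (0.11) and ttn.2 (0.01), each overlapping the next. In the mutant library myf5 led with 2.61 RPKM, followed by pvalb2 (2.28), acta1a (2.07), myod1 (1.42), tmod4 (1.19), acta1b (1.05) and myom2a (0.57), again with each interval overlapping the next. nexn (0.24), ldb3a (0.08) and ttn.2 (0.01) were lower in turn, without overlap between neighbours. The place of ttn.2 is uncertain in both libraries, because its row also covers ttn.1 and reads in the shared stretch may be uncounted. In the level per length, pvalb2 thus stood ninth of the members in the wildtype library and second in the mutant library.

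The list of heart muscle markers was higher in the mutant library in its summed level. Of the 18 rows of the heart list, 8 had 0 wildtype reads and 5 had 0 mutant reads, with 2 at 0 in both. Summed, the rows had 105 wildtype and 616 mutant reads. That is 7.42 and 36.96 CPM, a ratio of 4.98 with an interval of 4.04 to 6.19. Without a filter on low values, 7 of the 18 rows passed 2-fold upwards and 0 downwards, with a median log2 ratio of 0.61. At that setting 463 of all 51544 features passed upwards and 595 downwards. Of the 8 rows with a mean of at least 1 CPM, 5 were higher, with a median of 1.83. The median was 2.14 with genes at 0 reads given the ratio from a floor of 3 counts. By comparison, 2.22% of all features tested were higher, and 4.10% of those in the members' range of levels. All 5 higher heart rows were under 1 CPM in the wildtype library and passed the filter through the mutant library. This count and median therefore give no support of their own. They became 1 row and 0.60 with a pseudocount of 5 CPM, 2 rows and 0.73 with deposited RPKM, and 6 rows and 3.32 with a pseudocount of 0.1 CPM. MYL7 (ENSDARG00000019096), the myosin light chain that defines heart muscle, had 0 wildtype and 51 mutant reads. With the wildtype count set to a floor of 3 per library this was 14.4-fold higher (the interval starts at 11.3). MYH6 had 8 and 101 reads and MYH7 5 and 80, so the wildtype library was at or near 0 for these defining genes of heart muscle. On the same list actc1a went the other way, with 7 and 0 reads, below the filter. HAND2, a transcription factor of heart and branchial arch, had 7 and 119 reads, and the ratio of the list without it was 4.30. The part of heart tissue in the reads of the members, whether higher or lower in the mutant library, was not tested.

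Markers of skeletal fibre types were not higher in the mutant library in their summed level, although the slow sum rests mostly on 1 gene. Fast muscle markers summed to 69 wildtype and 61 mutant reads over 9 rows, a ratio of 0.750 with an interval of 0.523 to 1.07. Of these rows, 1 passed the filter, a fast troponin T row, TNNT3 (ENSDARG00000068457), with 29 and 21 reads and a log2 ratio of -0.43. Slow muscle markers had 3 of 7 rows measured, none past 2-fold, with a median of -0.16, and a summed ratio of 0.715 with an interval of 0.640 to 0.798. Most of their reads came from PROX1 (617 and 477), which is also expressed outside muscle, so the summed ratio largely reflects that gene. Both slow myosins on the list, smyhc1 and smyhc2, had 0 reads in each library. The slow list's TNNC1 had 26 and 46 reads (log2 ratio 0.41) and PRDM1 had 55 and 56 (-0.16). MYBPC1 (9 and 13 reads) and TNNT1 (2 and 5) lay below the filter. Smooth muscle markers had 7 of 12 rows measured, with 1 lower (MYLK, 32 and 8 reads), none higher and a median of -0.27, which was 0.21 over the 2 rows with a mean of at least 5 CPM. Their summed ratio was 1.19 with an interval of 1.104 to 1.28, and the MYLK call was lost with a pseudocount of 5 CPM and with RPKM. MYLK was at 0.480 CPM in the mutant library, so its row passed the filter through the wildtype library. TAGLN, an actin-binding protein of smooth muscle, had 600 and 1149 reads and a log2 ratio of 0.69. Somite and trunk markers had 149 and 189 reads over 13 rows, a ratio of 1.08 with an interval of 0.864 to 1.34. None of the 3 measured was past 2-fold, their median was 0.12, and the posterior hox and cdx4 rows held at most 1 read.

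**Figure D4:**
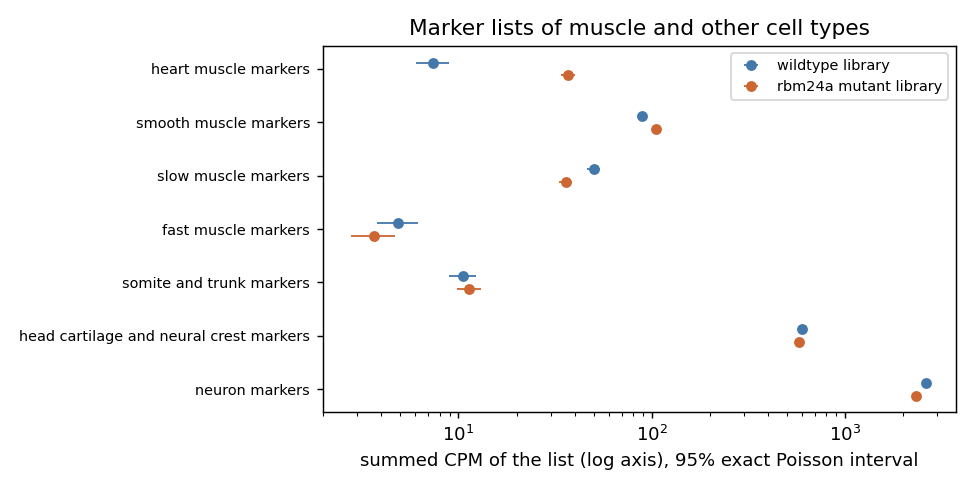
Summed CPM of each marker list on a log axis in the wildtype library (blue) and the rbm24a mutant library (orange), 1 library per group, with 95% exact Poisson intervals. The heart list lies furthest apart, at 7.42 and 36.96 CPM, the smooth muscle, slow muscle and neuron intervals also lie apart, and those of the somite and fast muscle lists overlap.

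Markers of other cell types of the head lay within 2-fold. Head cartilage and neural crest markers had 14 of 14 rows within 2-fold and a median of 0.02, with one SOX9 row at -0.71. Neuron markers had 9 of 9 rows within 2-fold and a median of -0.19, with tubb5 at -0.47 and a STMN1 row at 0.38.

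The wider muscle programme was read through 11 lists of genes, from which rows of the members were left out. Of 238 rows, 122 had a mean of at least 1 CPM, 4 of these were higher, 6 lower and 112 within 2-fold, and the median log2 ratio was -0.01. Over all features tested 2.22% were higher and 2.82% lower, and 4.10% and 4.88% in the members' range of levels. The counts of single lists below are small and are to be read beside these shares. Where several rows share a mammalian symbol, the row meant is given by its identifier.

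Upstream of the contractile genes, myogenic regulatory factors and their co-factors had 1 of 24 measured rows lower and none higher, with a median of -0.08. The lower one was mef2ab (ENSDARG00000057527), a Mef2 factor, with 57 and 21 reads (3.20-fold lower, interval 1.91 to 5.55). The call was lost with a pseudocount of 5 CPM and with RPKM, and the median was 0.05 with a minimum mean of 5 CPM. One PAX3 row (ENSDARG00000028348), a muscle and neural crest precursor factor, had a log2 ratio of -0.74. ID1 and ID3, inhibitors of basic helix-loop-helix factors, had 0.32 and 0.50.

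Among regulators of head muscle precursors, 2 of 13 were higher and none lower, with a median of 0.31. These were HAND2 (log2 ratio 2.45) and BARX1, a factor of the pharyngeal arches, with 114 and 311 reads (2.32-fold higher, interval 1.86 to 2.90). HAND2 was at 0.495 CPM in the wildtype library, so it passed the filter through the mutant library. With a pseudocount of 5 CPM 1 row was higher. HAND2 also belongs to heart and arch tissue and BARX1 to the arches, so neither marks muscle alone. DLX3 was at 0.77, LHX2 at 0.46, and lbx1a, a migrating muscle precursor factor, at -0.63. Which cells of the head gave the reads of this list was not tested, so its median is no measure of muscle precursors alone.

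Among genes of myoblast fusion, 1 of 9 was lower and none higher, with a median of -0.27. It was a RAC1 row (ENSDARG00000087954), a small GTPase expressed in most cells, with 897 and 311 reads (3.40-fold lower, interval 2.98 to 3.88). The fusion proteins proper, MYMK and mymx, had 5 and 4 wildtype reads and 5 and 10 mutant reads, below the filter.

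Within the contractile apparatus, thin filament and troponin genes had 1 of 10 measured rows higher and none lower, with a median of -0.26. The higher row was TNNI1 (ENSDARG00000052708), a troponin I, with 0 and 35 reads. This was 9.90-fold higher with the wildtype count set to a floor of 3 (the interval starts at 7.64). It passed the filter through the mutant library, and the call was lost with a pseudocount of 5 CPM and with RPKM. This TNNI1 row is also on the heart list. Those with the most reads, tpm3 and tpm4a, tropomyosins that are also made outside muscle, had log2 ratios of -0.01 and -0.36. Of 26 thick filament and M-line rows only mybphb passed the filter, with 35 and 27 reads and a log2 ratio of -0.41.

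In Z-disc and costamere genes 3 of 10 measured rows were lower and none higher, with a median of -0.23. A CAPN3 row (ENSDARG00000041864), a calpain protease, had 799 and 31 reads (30.4-fold lower, interval 21.2 to 44.99). At 56.5 CPM its wildtype level was far above the 5.65 CPM of myf5, the highest member. Which cells gave the CAPN3 reads was not tested, so its ratio cannot be placed in muscle. xirp1, an actin-binding protein of striated muscle, had 71 and 8 reads (10.5-fold lower, interval 5.03 to 25.2), and a PDLIM5 row (ENSDARG00000101777) had 571 and 279 reads (2.41-fold lower, interval 2.09 to 2.79). Summed, the list was 2.23-fold lower in the mutant library, or 1.48-fold without the CAPN3 row. That PDLIM5 row gave 571 of the remaining 1458 wildtype reads and 279 of the remaining 1162 mutant reads. Another PDLIM5 row (ENSDARG00000027600) had 194 and 245 reads and a log2 ratio of 0.09. The xirp1 row was at 0.480 CPM in the mutant library, so it passed the filter through the wildtype library and its call gives no support of its own. The number of lower rows was 2 with a pseudocount of 5 CPM and 1 with RPKM.

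Among genes of excitation-contraction coupling and calcium handling 1 of 10 was lower and none higher, with a median of -0.002. A JPH1 row (ENSDARG00000058603), a junctophilin that joins the sarcoplasmic reticulum to the cell membrane, had 36 and 8 reads (5.30-fold lower, interval 2.42 to 13.2), and hrc, a calcium-binding protein of the reticulum, had a log2 ratio of -0.97. That JPH1 row was at 0.480 CPM in the mutant library, so it passed the filter through the wildtype library. The number of lower rows was 2 with a pseudocount of 0.1 CPM and 0 with 5 CPM or with RPKM.

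At the neuromuscular junction 1 of 5 was higher and none lower, with a median of 0.05. musk, the receptor kinase that organises the synapse on the muscle side, had 4 and 39 reads (8.28-fold higher, interval 2.99 to 31.9), while CHRNA1 and RAPSN, of the acetylcholine receptor cluster, had 0.17 and -0.17. The musk row passed the filter through the mutant library, and its call was lost with a pseudocount of 5 CPM and with RPKM.

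The remaining lists held no gene past 2-fold with a pseudocount of 1 CPM. These were the dystrophin complex and basement membrane (19 measured, median 0.02, with COL6A3 at -0.95 and col6a1 at -0.56), muscle chaperones and myosin assembly (10 measured, median 0.06, with UNC45B at -0.47 and SMYD2 at 0.39), and muscle metabolism (11 measured, median 0.02, with a PYGM row at 0.75, the myoglobin gene mb at 0.51 and LDHA at -0.56). By plain CPM ratios COL6A3 was 2.07-fold lower (interval 1.63 to 2.65), and that PYGM row (ENSDARG00000055518), a muscle glycogen phosphorylase with 22 and 55 reads, was 2.12-fold higher (interval 1.27 to 3.65).

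**Figure D5:**
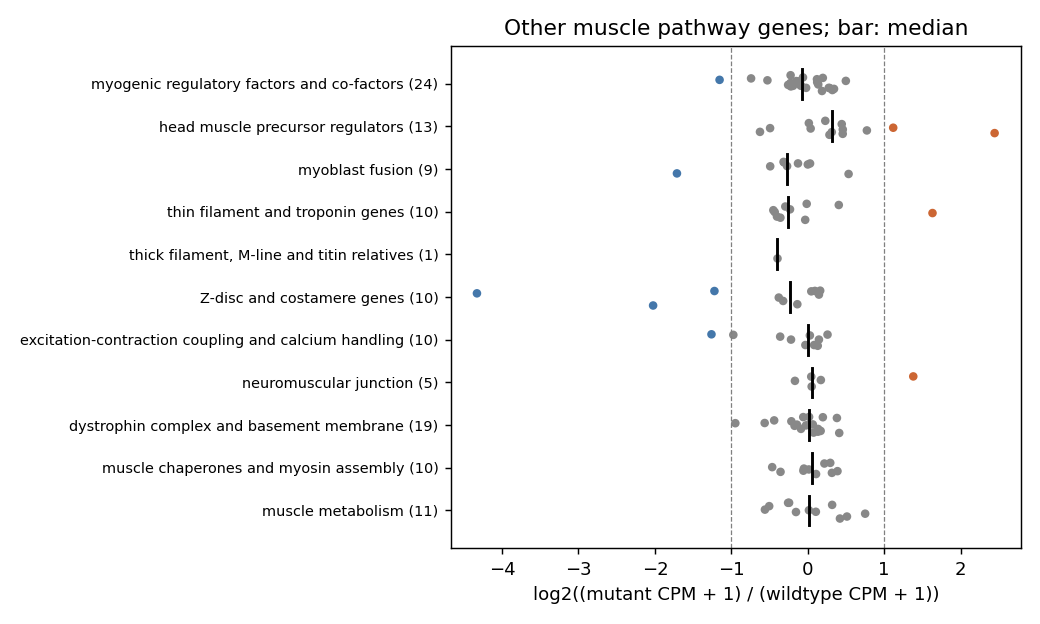
Log2 ratio of mutant over wildtype CPM with 1 added to each, for every measured gene of the 11 muscle pathway lists, with the number measured in brackets, the median as a black bar, dashed lines at 2-fold and coloured points past it. Most points lie within 2-fold, and the lowest is CAPN3 in the Z-disc list at -4.33.

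The comparison in the authors' deposited table names 37 genes, and 0 of the 10 members and 0 genes of the 11 lists are among them. In the authors' deposited table the lowest wildtype FPKM is 21.6, while the highest member reached 2.54 RPKM in the wildtype library. For the mutant library the lowest FPKM there is 0.1, and the highest member reached 2.61 RPKM. Why no member is listed was not tested.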

How the data were processed

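Messenger RNA of 1 wildtype and 1 rbm24a mutant head library was sequenced on an Illumina instrument as paired reads of 100 bp from TruSeq RNA libraries, per the labels' protocols. HISAT2 (2.0.1), HTSeq (0.6.1), DESeq2, cutadapt and build GRCz11 are named in the submitters' processing notes. The role of a tool, the annotation used and the strand option were not given in the sources used here. Reads of overlapping or antisense genes may therefore be mixed. The deposited table gives whole-number read counts per feature, unnormalised. The authors also deposited RPKM values, whose implied gene length is equal between libraries but is not the table's length column (median 0.209 of it over 4518 features). Read counts in the authors' deposited comparison table equal those of the count table for all 37 genes it names. Its FPKM values were set beside the RPKM values as deposited, without rescaling. The length column, an other quantity in bp deposited by the authors, looks like a genomic span.

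CPM used the total of all features, a pseudocount of 1 and a minimum mean of 1 CPM, with calls made at 2-fold. Folds of single genes are CPM ratios without pseudocount, with 95% Clopper-Pearson intervals, and Poisson intervals for levels (scipy 1.17.1). PCR reads are not independent molecules, so intervals and floors cover counting error only. A floor of 3 counts per library, 0.212 CPM wildtype and 0.180 CPM mutant, stood in for 0. TMM factors came from edgeR 4.0.16. The steps were tested on simulated data.

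Symbols came from a names table that covers 26147 of 31571 annotated genes, ignoring case, and a name without its final a or b counted for both copies. Of 343 symbols on 18 lists, counted once per list, 302 matched. acta1a, acta1b, myom2a and ttn.2, listed under shared names, were told apart by span against RefSeq (GRCz12tu). The members and lists were chosen with earlier results of these data known. Named genes were all members and, per list, up to 4 with the largest absolute log2 ratio and the 2 with the highest mean. Outside that rule, myog, myf6, MYMK, mymx, smyhc1, smyhc2, ldb3b, actc1a, actc1b, MYBPC1, TNNT1 and another PDLIM5 row were named after their values were seen. Alternatives were other pseudocounts, filters, scalings and RPKM.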

Additional observations from a re-analysis of the deposited data

How the results depend on the processing

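No paired analysis was possible because there was a single library per genotype, which also left none to leave out. Of all features tested, 402 passed 2-fold upwards and 511 downwards. These counts became 672 and 830 with a pseudocount of 0.1 CPM, 97 and 164 with 5 CPM, 171 and 243 with a minimum mean of 5 CPM, and 188 and 242 with deposited RPKM values. Of the members, 1 was lower with a pseudocount of 0.1 CPM (ldb3a, -1.24), and acta1b then stood at 1.53. With a pseudocount of 5 CPM 0 members were higher, and with a minimum mean of 5 CPM also 0, because only myf5 passed that filter and the sarcomere members then gave no value. With deposited RPKM values 1 member was higher (pvalb2, 1.56), while acta1a and myom2a stood at 0.84 and 0.46. The added constant shrinks low values by construction. Over all alternatives log2 ratios ran from 0.54 to 1.47 for acta1a, 0.46 to 1.94 for myom2a, 0.64 to 3.68 for pvalb2, -0.997 to -0.38 for tmod4, -1.24 to -0.14 for ldb3a and -0.99 to -0.26 for nexn. No member turned its direction under any alternative run, and ttn.2 was at 0 with RPKM. TMM scaling, size factors and a total of annotated genes alone, the last chosen after seeing the data, left the members' counts at 3 and 0. Counts of 2 to 97 reads per library limit every value.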

Other observations

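Across the 297 rows of all muscle and marker lists, 6 had 0 reads in the wildtype library and at least 10 in the mutant library, and 0 showed the reverse. The share of all features with such counts was not computed, so these counts are no result about muscle. The 6 were MYL7 (51 mutant reads), TNNI1 (35), TNNT2 (31), cmlc1 (25), tnnc1a (19) and GATA5 (10). TNNT2, cmlc1, tnnc1a and GATA5 lie below the filter, and their naming followed from these values. The first 5 encode myosin light chains and troponin subunits, and GATA5 is a transcription factor of heart and endoderm. MYL7, TNNI1, TNNT2, cmlc1 and GATA5 are on the heart list. tnnc1a was placed on the thin filament list alone, and which cells gave its reads was not tested.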
